A study of Homo sapiens with 6 samples.

Results

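Kinesins are motor proteins that walk along microtubules and are encoded in humans by the KIF and KIFC genes. The genes described here were all protein-coding genes whose GENCODE symbol is KIF or KIFC followed by a number and an optional letter, 42 of the 67060 genes counted. They were split by a fixed list of symbols into 13 transport kinesins (the KIF1, KIF3, KIF5 and KIF21 families with KIFC2 and KIFC3), 12 mitotic kinesins (KIF2C, KIF4A, KIF11, KIF14, KIF15, KIF18A, KIF18B, KIF20A, KIF20B, KIF22, KIF23 and KIFC1) and 17 others. The others also include motors that carry cargo, among them KIF13A, KIF13B and KIF16B, so the transport class does not hold all such motors. RNA was sequenced from SH-SY5Y cells, a human neuroblastoma line that the labels call neuronal progenitor, 24 h after infection with an adenovirus. Control cells received Ad CMV GFP (replicates 1, 3 and 4), and the other cells received Ad CMV 3xFlag-Esrrg (replicates 2, 3 and 4), which carries the mouse coding sequence of Esrrg behind the CMV promoter. Both groups therefore carried a virus and a foreign protein, and uninfected cells were not analysed here. Esrrg encodes ERRγ, an orphan nuclear receptor that activates mitochondrial genes. The question was which kinesin genes moved when ERRγ was overexpressed, and whether transport and mitotic motors moved alike. The labels do not say that replicates came from separate cultures, so p-values measure the spread between these libraries.

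Transport kinesins carry vesicles, mitochondria and other cargo, most of them towards the plus ends of microtubules, which in axons point away from the cell body. Conventional kinesin pairs a KIF5 heavy chain with light chains, kinesins of the KIF3 family join KIF3A to KIF3B or KIF3C and the adaptor KIFAP3, and members of the KIF1 family carry synaptic vesicle precursors and mitochondria. Mitotic kinesins build the bipolar spindle, align chromosomes, order the spindle midzone and complete cytokinesis, and their genes are transcribed mostly in late cell cycle phases. A promoter element known as the cell cycle genes homology region (CHR, letters TTTGAA) is a hallmark of such genes.

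The CHR sets the mitotic class apart in promoter sequence, so the windows of the 3 mitotic kinesins with lower counts under Ad CMV 3xFlag-Esrrg are shown. RefSeq windows of GRCh38.p14 from 250 bases before to 50 bases after a gene start were found for 34 of the 42 genes, and each is printed 5′ to 3′ on the gene's own strand with the CHR in capitals (TTTGAA, or TTCAAA where it lies on the opposite strand). The windows are chr10:92592880-92593179 on the plus strand for KIF11, chr1:200620702-200621001 on the minus strand for KIF14 and chr11:28108107-28108406 on the minus strand for KIF18A.
KIF11: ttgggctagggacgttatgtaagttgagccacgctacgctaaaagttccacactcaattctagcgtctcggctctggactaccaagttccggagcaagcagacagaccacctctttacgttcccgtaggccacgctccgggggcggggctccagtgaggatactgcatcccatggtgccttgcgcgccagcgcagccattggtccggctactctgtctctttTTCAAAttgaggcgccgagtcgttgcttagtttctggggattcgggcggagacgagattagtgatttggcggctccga
KIF14: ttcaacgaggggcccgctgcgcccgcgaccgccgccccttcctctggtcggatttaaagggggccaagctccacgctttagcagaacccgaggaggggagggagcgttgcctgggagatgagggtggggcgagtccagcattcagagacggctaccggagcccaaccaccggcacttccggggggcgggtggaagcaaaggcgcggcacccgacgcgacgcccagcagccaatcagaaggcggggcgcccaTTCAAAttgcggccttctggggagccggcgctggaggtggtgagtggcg
KIF18A: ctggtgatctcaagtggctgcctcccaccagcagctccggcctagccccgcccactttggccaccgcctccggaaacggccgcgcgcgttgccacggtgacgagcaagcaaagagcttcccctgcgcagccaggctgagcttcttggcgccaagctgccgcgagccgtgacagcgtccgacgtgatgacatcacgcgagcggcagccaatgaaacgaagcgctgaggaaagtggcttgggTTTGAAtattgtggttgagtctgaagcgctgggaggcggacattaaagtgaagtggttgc
The CHR began 28 bases before the start in KIF11, at base 2 after it in KIF14 and 10 bases before it in KIF18A. Searched on both strands, TTTGAA stood in the windows of 9 of 12 mitotic kinesins (75.0%), of 1 of 9 transport kinesins (KIF5B) and of 1 of 13 others (KIF4B), compared with 15.2% of the 35116 windows in the table. The mitotic genes with it were KIF4A, KIF11, KIF14, KIF15, KIF18A, KIF18B, KIF20B, KIF23 and KIFC1. The letters CCAAT, which often lie near the CHR in such genes and can share an end base with it, stood in 10 of 12 mitotic, 4 of 9 transport and 4 of 13 other windows, compared with 34.6% of all. The letters AAGGTCA, the sequence that receptors of the ERR family bind, stood in none of the 34 kinesin genes' windows and in 3.92% of all windows. No window was found for KIF5A, KIF13B, KIF19, KIF21B, KIF26B, KIF27, KIFC2 and KIFC3, so these genes were not searched. A match of letters is a description of the window and says nothing about binding.

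Between 24969759 and 29700980 reads were counted on genes in the Ad CMV GFP libraries and between 26513620 and 40859666 in the Ad CMV 3xFlag-Esrrg libraries. Counts that map to human ESRRG rose from 2357, 2796 and 2876 to 15228, 25994 and 26497 (log2 fold change 3.02 ± 0.14 SE, edgeR adjusted p = 6.28e-07). Reads that fell outside genes were 51.3% to 52.2% of all reads with Ad CMV GFP but 46.6%, 31.6% and 29.5% in Ad CMV 3xFlag-Esrrg replicates 2, 3 and 4. The groups therefore also differ in library make-up, and fits with this share as a covariate are given with the results. The share was lower in every Ad CMV 3xFlag-Esrrg library than in any control, so in those fits it cannot be fully told apart from the virus. Replicate 2, closest to the controls in this share, also had the fewest ESRRG counts of its group. Of 10 noradrenergic neuroblastoma markers, TH and CHGA were at 0 in every library, and the summed level of the list was 786 to 840 CPM with Ad CMV GFP and 570 to 755 CPM with Ad CMV 3xFlag-Esrrg. All 8 fibroblast and mesenchymal markers were counted, with COL3A1 at 2602 ± 42.6 and 2536 ± 94.2 CPM (SD, n = 3), and their sum moved from 3876 to 4008 CPM down to 3226 to 3501 CPM. In bulk RNA, fewer cells of a type and less RNA per cell cannot be told apart.

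Of the 42 kinesin genes, 35 had enough counts to be tested. Expression is given as CPM, counts per 1000000 after TMM scaling, and a gene was called higher or lower at an edgeR adjusted p below 0.05, adjusted over all 24500 tested genes, and at least a 1.5-fold change. By that rule 3 kinesins rose (KIFC3, KIF1C and KIF9) and 9 fell (KIF26A, KIF6, KIF14, KIF27, KIF11, KIF18A, KIF5C, KIF3A and KIF13A). Among all tested genes 17.3% were called higher and 16.8% lower (34.1% in all), and among the 13746 tested protein-coding genes 25.9% were higher and 12.4% lower (38.3% in all). On adjusted p alone, 6 kinesins were higher, 16 were lower and 13 did not pass, against 24.3% of all tested genes higher and 23.5% lower (47.8% in all). For protein-coding genes those shares were 37.6% and 22.4% (60.0% in all). The median log2 fold change was -0.17 over the 35 kinesins, -0.10 over all tested genes and 0.12 over protein-coding genes. Scaling moved the split of higher against lower calls from 3 and 9 to 4 and 7 with RLE size factors, and to 2 and 16 with library size alone, where the median of all tested genes was -0.42. With the share of reads outside genes in the model as a covariate, 6 kinesins were called, KIFC3 and KIF1C higher and KIF11, KIF26A, KIF6 and KIF1A lower. In that fit KIF9 (0.56), KIF27 (-0.57), KIF5C (-0.54), KIF14 (-0.53), KIF13A (-0.53) and KIF3A (-0.36) passed the adjusted p at less than 1.5-fold, and KIF18A (-0.30, adjusted p = 0.177) did not pass. Shares of all tested genes called are not given here for these alternative fits. A change in calls particular to kinesins therefore cannot be told from a general one. With Ad CMV 3xFlag-Esrrg replicate 2 alone, a comparison chosen after seeing that its share was closest to the controls, 3 were called higher (KIFC3, KIF1C and KIF9) and 7 lower (KIF26A, KIF6, KIF14, KIF27, KIF11, KIF5C and KIF1A). A single library has no spread of its own, so that fit assumes it varies like the controls. The 2 groups of libraries did not overlap for 25 of the 35 kinesins, and they did not overlap for 58.1% of all tested genes and 70.3% of protein-coding ones.

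**Figure D1:**
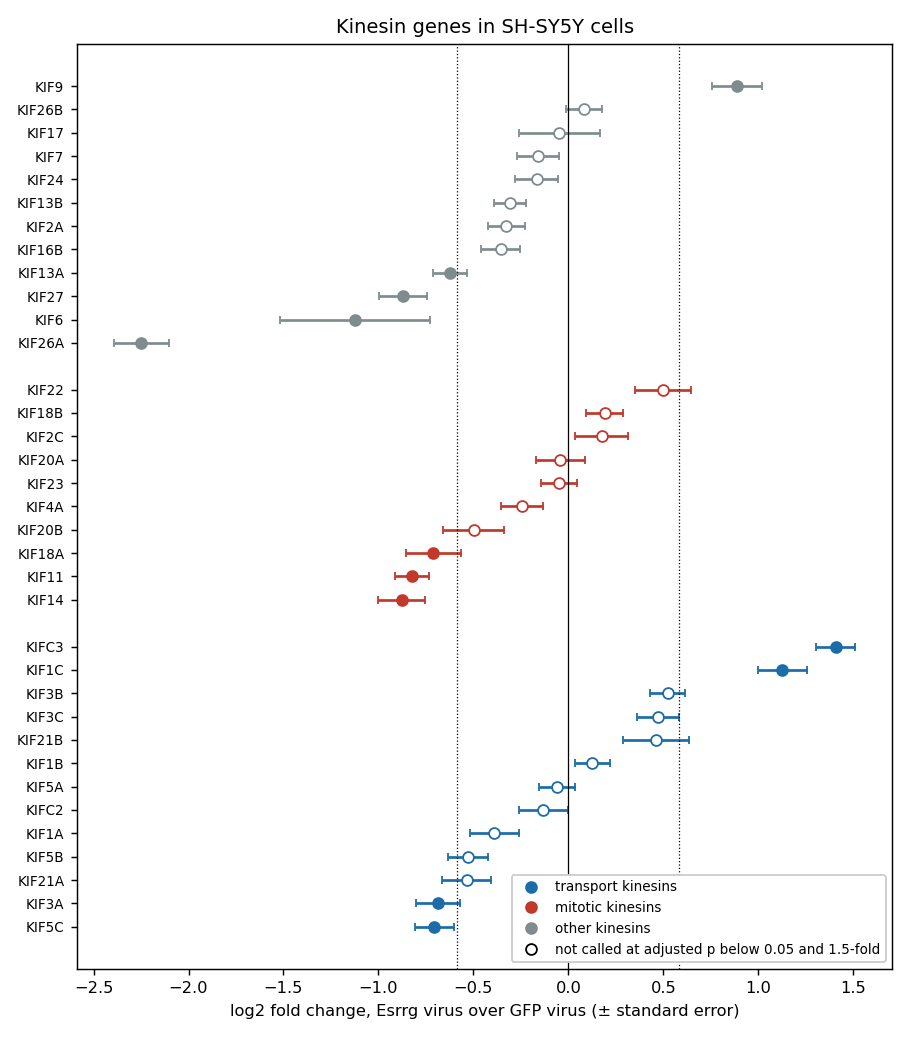
Log2 fold change of the 35 tested kinesins (horizontal axis, Ad CMV 3xFlag-Esrrg over Ad CMV GFP, points with standard errors), grouped by class, with dotted lines at 1.5-fold and open points for genes not called. KIFC3 and KIF1C stand at 1.41 and 1.13 on the right, KIF26A stands at -2.25 on the left, and all 3 called mitotic kinesins lie below 0.

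Among transport kinesins 2 were called higher and 2 lower of 13, with a median log2 fold change of -0.06, against 25.9% and 12.4% of protein-coding genes and their median of 0.12. The 2 that rose were KIFC3 and KIF1C, and the 2 that fell were KIF3A and KIF5C. The summed level of the class was 1099 to 1158 CPM with Ad CMV GFP and 1159 to 1181 CPM with Ad CMV 3xFlag-Esrrg after TMM scaling. Scaled by library size alone, the sum was 1225 to 1307 and 982 to 1169 CPM, so the direction of the sum depends on the scaling.

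KIFC3 (chromosome 16, 57758217 to 57863053, GRCh38) encodes a minus-end-directed motor that acts at cell junctions and the Golgi. It had 21.96, 23.7 and 25.7 CPM with Ad CMV GFP and 58.1, 63.4 and 68.0 CPM with Ad CMV 3xFlag-Esrrg (log2 fold change 1.41 ± 0.10 SE, adjusted p = 9.71e-06). The lowest Ad CMV 3xFlag-Esrrg library was above the highest control by more than the range within either group. KIFC2, the other minus-end-directed motor of the class, had 13.6 ± 0.73 and 12.4 ± 1.83 CPM (SD, n = 3) and did not pass (log2 fold change -0.13, adjusted p = 0.42).

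In the KIF1 family, the member called was KIF1C (chromosome 17, 4997950 to 5028401), which carries dense core vesicles and integrins. KIF1C had 84.6, 97.5 and 89.6 CPM with Ad CMV GFP and 161, 208 and 224 CPM with Ad CMV 3xFlag-Esrrg (log2 fold change 1.13 ± 0.13 SE, adjusted p = 0.000107). All 3 Ad CMV 3xFlag-Esrrg libraries lay above the controls, with replicate 2 the lowest. KIF1B, a motor for mitochondria and synaptic vesicle precursors, had 178, 163 and 168 CPM and then 180, 194 and 182 CPM (log2 fold change 0.13, adjusted p = 0.28). KIF1A, the neuronal motor for synaptic vesicle precursors, had 18.8, 20.9 and 19.4 CPM with Ad CMV GFP and 12.6, 14.8 and 17.6 CPM with Ad CMV 3xFlag-Esrrg, which passed the adjusted p but not 1.5-fold (log2 fold change -0.39 ± 0.13 SE, adjusted p = 0.0293). The 3 genes of 1 family thus went up, did not pass and went down. The count of KIF1C over that of KIF1B, a ratio taken within a library so that no scaling enters, was 0.476, 0.596 and 0.532 with Ad CMV GFP and 0.891, 1.08 and 1.23 with Ad CMV 3xFlag-Esrrg.

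In the KIF3 family, KIF3A fell while its alternative partners moved the other way. KIF3A (chromosome 5, 132692628 to 132737638), the subunit shared by both forms of the motor, had 68.1, 65.1 and 60.4 CPM with Ad CMV GFP and 46.3, 39.2 and 35.0 CPM with Ad CMV 3xFlag-Esrrg (log2 fold change -0.68 ± 0.12 SE, adjusted p = 0.000805). KIF3B had 97.7, 98.2 and 97.4 CPM and then 131, 149 and 141 CPM, which passed the adjusted p at less than 1.5-fold (log2 fold change 0.52 ± 0.09 SE, adjusted p = 0.000948). KIF3C, enriched in neurons, had 68.8, 80.9 and 77.8 CPM and then 92.3, 108 and 115 CPM (log2 fold change 0.47 ± 0.11 SE, adjusted p = 0.00535), and it did not pass with the share of reads outside genes in the model (0.18, adjusted p = 0.266). KIF3B and KIF3C were called higher without Ad CMV 3xFlag-Esrrg replicate 2, at 0.68 and 0.67. None of the 3 genes had overlapping groups, and the 2 partner genes stood on the opposite side from KIF3A. KIFAP3, the adaptor of the trimer, moved with KIF3A, from 48.1 ± 2.37 to 35.9 ± 0.96 CPM (SD, n = 3, log2 fold change -0.42, adjusted p = 0.00293).

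The ratio of KIF3B to KIF3A counts within a library was 1.43, 1.51 and 1.61 with Ad CMV GFP and 2.84, 3.79 and 4.04 with Ad CMV 3xFlag-Esrrg. The ratio of KIF3C to KIF3A was 1.01, 1.24 and 1.29 and then 1.99, 2.75 and 3.29. Both ratios were higher in every Ad CMV 3xFlag-Esrrg library than in any control, with replicate 2 the lowest of its group. A two-sided exact permutation test of 3 libraries against 3 cannot give a p below 0.1, and ratios whose groups do not overlap sit at that smallest value. These ratios compare libraries and not the 2 genes with each other, since the counts are not per length.

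**Figure D2:**
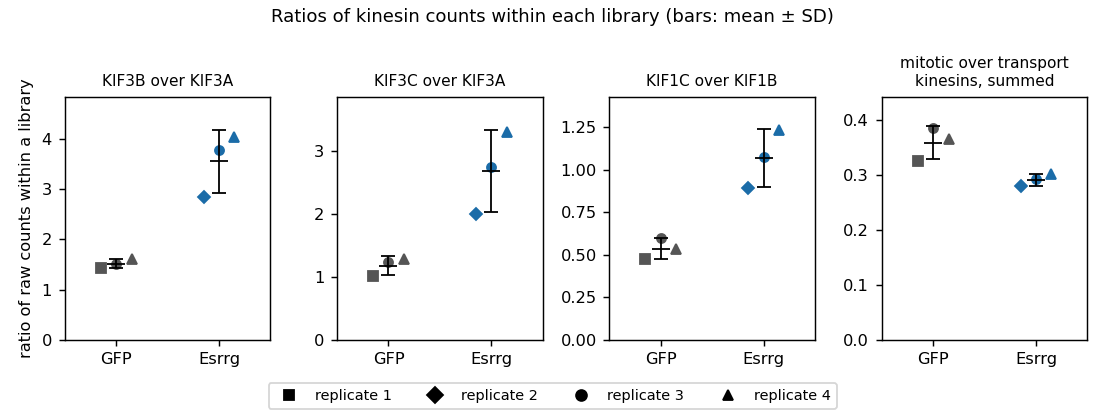
Ratio of raw counts within each library (vertical axes, no unit) for KIF3B over KIF3A, KIF3C over KIF3A, KIF1C over KIF1B and the summed mitotic over the summed transport kinesins, with 3 libraries per group and bars for mean ± SD. In the first 3 panels all Ad CMV 3xFlag-Esrrg libraries lie above all controls, and in the last panel they lie below, at 0.280 to 0.301 against 0.325 to 0.385.

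The KIF5 genes encode the heavy chains of conventional kinesin. KIF5C (chromosome 2, 148875227 to 149026759), a neuronal form, had 32.2, 28.4 and 31.4 CPM with Ad CMV GFP and 20.2, 18.4 and 17.8 CPM with Ad CMV 3xFlag-Esrrg (log2 fold change -0.70 ± 0.10 SE, adjusted p = 0.000334). KIF5B, the form made in most tissues, had 239, 233 and 208 CPM and then 171, 154 and 146 CPM, a fall that passed the adjusted p but not 1.5-fold (log2 fold change -0.53 ± 0.10 SE, adjusted p = 0.002). The groups of both genes did not overlap. KIF5A, the third heavy chain and mainly neuronal, had 38.1, 36.4 and 38.8 CPM and then 33.7, 35.6 and 39.3 CPM, with overlapping groups (log2 fold change -0.06, adjusted p = 0.635). The within-library ratio of KIF5A to KIF5B counts went from 0.160, 0.156 and 0.187 to 0.197, 0.231 and 0.269. The transcripts differ in GC content, at 51.2% for KIF5A and 39.1% for KIF5B. After correction for GC content and length in each library, KIF5A was at -0.16 and KIF5B at -0.29 on the log2 scale, closer together than before.

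The KIF21 genes encode motors that restrain microtubule growth. KIF21A went from 284 ± 16.4 to 196 ± 34.9 CPM (SD, n = 3), which passed the adjusted p but not 1.5-fold (log2 fold change -0.53, adjusted p = 0.0065) and did not pass with the covariate (-0.13, adjusted p = 0.45). KIF21B was low, at 3.57 ± 0.52 and 4.92 ± 0.67 CPM, and missed the threshold (log2 fold change 0.46, adjusted p = 0.0509).

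**Figure D3:**
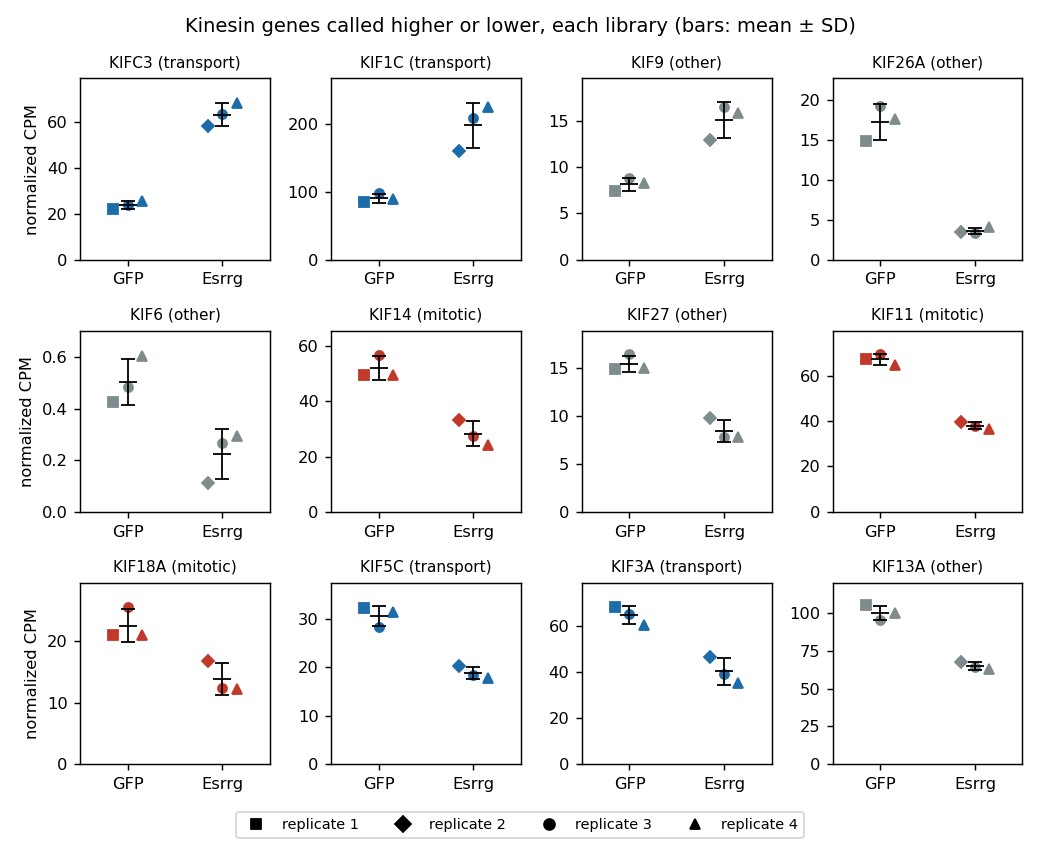
Normalized CPM (vertical axes from 0, 1 scale per gene) in each library for the 12 kinesins called higher or lower, with 3 libraries per group, marker shapes for replicate numbers and bars for mean ± SD. The groups do not overlap in any of the 12 panels. KIF6 stays below 1 CPM.

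Divided by the length of its annotated exons, KIF5B had the highest group mean of the kinesins, at 38.6 ± 2.81 CPM per kb (SD, n = 3) with Ad CMV GFP and 26.8 ± 2.18 with Ad CMV 3xFlag-Esrrg. With Ad CMV GFP it was followed by KIF21A at 28.1 ± 1.63, KIF3B at 16.0 ± 0.07, KIF20A at 12.8 ± 1.33 and KIF11 at 12.6 ± 0.44 CPM per kb, where the last 2 do not differ beyond their spread. With Ad CMV 3xFlag-Esrrg, KIF1C came second at 23.1 ± 3.86 CPM per kb, next to KIF3B at 22.96 ± 1.41 and KIF21A at 19.4 ± 3.45. The ranges of mean ± SD of KIF1C, KIF3B and KIF21A overlap. That of KIF5B overlaps the range of KIF1C but lies above that of KIF21A and, narrowly, above that of KIF3B. KIF1C had been in place 8 and KIFC3 moved from place 25 to place 12. Genes with long annotated transcripts that the cells may not use, such as KIF5C with 33.2 kb of exons, are placed lower by this measure.

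Among mitotic kinesins 3 of the 10 tested were called lower and 0 higher, with a median log2 fold change of -0.15, against 12.4% and 25.9% of protein-coding genes. On adjusted p alone 4 were lower and 1 was higher, against 22.4% and 37.6% of protein-coding genes. The summed level of the class went from 376 to 445 CPM with Ad CMV GFP to 325 to 355 CPM with Ad CMV 3xFlag-Esrrg, and its count relative to the transport class went from 0.325, 0.385 and 0.365 to 0.280, 0.291 and 0.301. Individual members stood on both sides of 0.

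KIF11 (chromosome 10, 92574105 to 92655395) encodes the motor that pushes spindle poles apart. It had 67.4, 69.6 and 64.9 CPM with Ad CMV GFP and 39.7, 37.8 and 36.5 CPM with Ad CMV 3xFlag-Esrrg (log2 fold change -0.82 ± 0.09 SE, adjusted p = 7.66e-05). KIF14 (chromosome 1, 200551497 to 200620751), which acts with citron kinase in cytokinesis, had 49.4, 56.8 and 49.4 CPM and then 33.1, 27.6 and 24.1 CPM (log2 fold change -0.88 ± 0.12 SE, adjusted p = 0.000319). KIF18A (chromosome 11, 28020619 to 28108156), which dampens chromosome movements at the metaphase plate, had 21.1, 25.6 and 20.97 CPM and then 16.8, 12.4 and 12.2 CPM (log2 fold change -0.71 ± 0.14 SE, adjusted p = 0.00243), and it was at -0.30 with the covariate (adjusted p = 0.177). The groups did not overlap for any of the 3, and replicate 2 was the highest of the Ad CMV 3xFlag-Esrrg libraries in each.

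KIF20B, a cytokinesis motor, went from 36.7 ± 8.85 to 26.0 ± 3.21 CPM (SD, n = 3), which passed the adjusted p only (log2 fold change -0.50, adjusted p = 0.0261) and did not pass with the covariate (-0.24, adjusted p = 0.359). KIF22, a chromosome arm motor, went from 24.9 ± 3.09 to 35.2 ± 6.82 CPM with overlapping groups (log2 fold change 0.50, adjusted p = 0.0181), and it turned to -0.033 with the covariate (adjusted p = 0.9). The other 5 tested genes did not pass without the covariate. They were KIF4A at -0.24, KIF23 at -0.05, KIF20A at -0.04, KIF2C at 0.18 and KIF18B at 0.19 on the log2 scale. With the covariate KIF4A (-0.54, edgeR adjusted p = 0.000754) and KIF20A (-0.46, edgeR adjusted p = 0.00595) passed the adjusted p as lower, at less than 1.5-fold. KIF23 (-0.15), KIF2C (-0.20) and KIF18B (0.06) did not pass in that fit either. KIF23 is part of centralspindlin, KIF20A brings the chromosomal passenger complex to the midzone, KIF4A binds the midzone bundler PRC1, and KIF2C and KIF18B shorten microtubules. A CHR was present in the windows of the 3 that were called lower and in that of KIF20B. It was also present in those of KIF4A, KIF18B and KIF23, which did not pass without the covariate. The windows of KIF2C, KIF20A and KIF22 held none. Whether the CHR has a part in these changes was not tested.

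The remaining class held the largest fall of any kinesin. KIF26A (chromosome 14, 104136454 to 104180894), an unconventional kinesin without motor activity that restrains GDNF and RET signalling in enteric neurons, had 14.9, 19.3 and 17.6 CPM with Ad CMV GFP and 3.44, 3.39 and 4.05 CPM with Ad CMV 3xFlag-Esrrg (log2 fold change -2.25 ± 0.14 SE, adjusted p = 4.14e-06). Its paralog KIF26B had 33.9 ± 1.84 and 35.9 ± 2.32 CPM (SD, n = 3) and did not pass (log2 fold change 0.08, adjusted p = 0.497). The within-library ratio of KIF26A to KIF26B counts was 0.415, 0.597 and 0.526 in controls and 0.0966, 0.1004 and 0.106 with Ad CMV 3xFlag-Esrrg.

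KIF9 (chromosome 3, 47227998 to 47283451), a motor of motile cilia and flagella, rose from 7.45, 8.79 and 8.25 CPM to 12.9, 16.5 and 15.8 CPM (log2 fold change 0.89 ± 0.13 SE, adjusted p = 0.000395). KIF27 (chromosome 9, 83834099 to 83921465), a relative of the Hedgehog pathway kinesin KIF7, fell from 14.9, 16.5 and 15.04 CPM to 9.80, 7.84 and 7.78 CPM (log2 fold change -0.87 ± 0.13 SE, adjusted p = 0.000348). KIF13A (chromosome 6, 17759183 to 17987635), an endosomal motor, fell from 105, 95.3 and 99.8 CPM to 67.6, 63.99 and 63.2 CPM (log2 fold change -0.62 ± 0.09 SE, adjusted p = 0.000327). The groups of these 3 genes did not overlap. KIF6 (chromosome 6, 39329990 to 39725408) rested on 12, 15 and 20 counts with Ad CMV GFP and 3, 9 and 10 counts with Ad CMV 3xFlag-Esrrg (log2 fold change -1.12 ± 0.40 SE, adjusted p = 0.0381), and it was not called when any 1 of the 6 libraries was left out (largest adjusted p = 0.149).

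KIF13B at -0.31, KIF16B at -0.36 and KIF2A at -0.33 on the log2 scale passed the adjusted p only, and KIF16B and KIF2A did not pass with the covariate (-0.17 and -0.16). KIF13B and KIF16B carry membrane cargo and endosomes, and KIF2A shortens microtubules in neurites. KIF7, KIF17 and KIF24, which act at cilia or centrioles, did not pass, at -0.16, -0.05 and -0.17 on the log2 scale.

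The 7 untested kinesins had few or no counts. KIF2B, KIF15 and KIFC1 were at 0 in all 6 libraries, KIF19 had 1 count in 1 library, KIF4B had 0 to 4, KIF25 had 3 to 9, and KIF12 had 2, 2 and 4 counts with Ad CMV GFP against 8, 10 and 20 with Ad CMV 3xFlag-Esrrg. A count of 0 allows up to 3 counts per library, for counting error only. KIF15 and KIFC1 are spindle motors of dividing cells, and the 10 other mitotic kinesins were counted in every library. KIF15 lay in a run of 9 neighbouring protein-coding genes on chromosome 3, from ZNF660 to TGM4, that were all at 0, while ZDHHC3 just beyond had 11516 counts in all. For KIFC1, 17 of 33 protein-coding neighbours within 500 kb on chromosome 6 were at 0, and 89.1% of its words of 31 bases also occur in alternate contigs of GRCh38. KIF26B with 90.6% and KIF5C with 78.4% of such words were nevertheless counted, and KIF15 had none. What sets KIF15 and KIFC1 to 0 was not tested, and their 0 counts are not a measure of their expression.

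Some counts may hold reads of other genes. Outside their own gene, 45.3% of the 31-base words of KIF27 and 27.0% of those of KIF4A occur again in the primary assembly. Annotated exons of other genes overlap 21.3% of the exon bases of KIF2A, 17.8% of KIF9 and 17.8% of KIFC2, and since the strand setting of the counting is not given in the sources used here, reads from these stretches cannot be told apart.

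Fold changes of kinesins went with the GC content of their transcripts. Across the 35 tested kinesins Spearman's rho was 0.51 and Pearson's r 0.28, across the 10 mitotic ones 0.87 and 0.86, and across the 13 transport ones 0.58 and 0.56. Across all 13746 tested protein-coding genes rho was 0.40 and r 0.33. These are correlations across genes counted in the same 6 libraries, and genes are not independent replicates. All 9 tested kinesins below 42% GC, a limit chosen after seeing the values, were lower on adjusted p (log2 fold changes -0.88 to -0.33), against 42.8% of the 3739 tested protein-coding genes below it. After correction for GC content and length in each library, rho was 0.03 for all kinesins, 0.62 for mitotic and 0.13 for transport ones. KIFC3 (1.00), KIF1C (0.86), KIF9 (0.68), KIF26A (-2.72), KIF6 (-1.11), KIF14 (-0.61), KIF11 (-0.61) and KIF27 (-0.59) were still called. KIF3A (-0.42), KIF5C (-0.26), KIF13A (-0.54) and KIF18A (-0.48) still passed the adjusted p, at less than 1.5-fold. KIF1A (-0.69), KIF7 (-0.63) and KIFC2 (-0.63) became called lower. KIF3B, at 0.48, and KIF3A still stood on opposite sides, and KIF3C was at 0.16 (adjusted p = 0.0993).

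**Figure D4:**
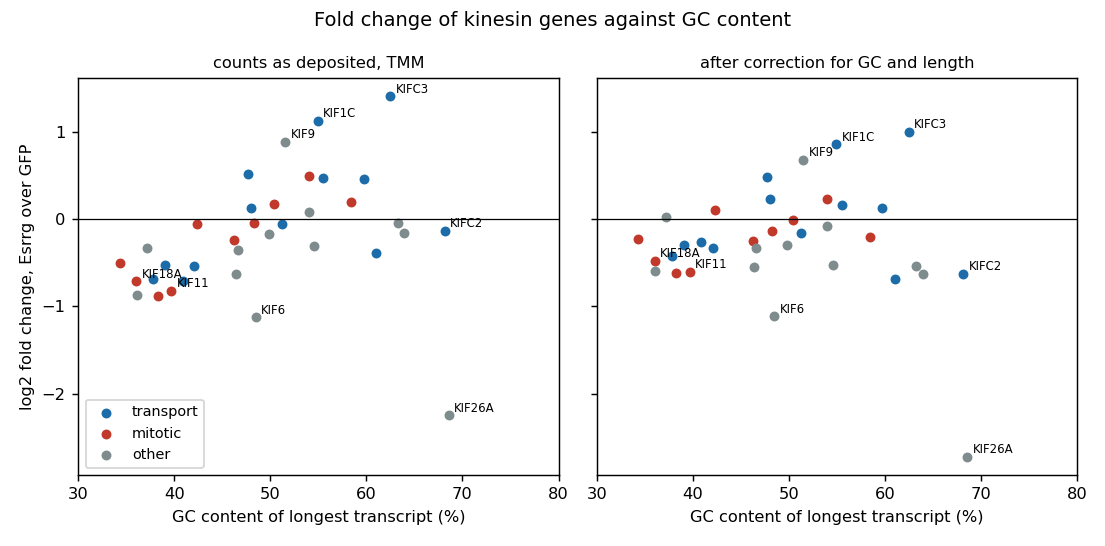
Log2 fold change of the 35 tested kinesins (vertical axis) against the GC content of the longest transcript (horizontal axis, %), from counts as deposited on the left and after correction for GC content and length on the right, 1 point per gene, coloured by class. On the left all points below 42% GC lie below 0, and on the right KIF2A is slightly above it, while KIFC3, KIF1C and KIF9 stay at the top and KIF26A at the bottom.

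The partner genes of each class were read beside the motors. Of 21 tested kinesin light chains and cargo partners, 6 were called higher and 1 lower, with a median log2 fold change of 0.13, close to the 25.9% called higher and the median of 0.12 among all tested protein-coding genes. With the covariate, or with library size as the only scaling, 1 was called higher. The share of protein-coding genes called in those fits is not given here. RHOT2, a mitochondrial outer membrane GTPase that recruits motors, rose from 53.9 ± 1.16 to 119 ± 20.1 CPM (SD, n = 3, log2 fold change 1.15, edgeR adjusted p = 7.26e-05). KLC2, a light chain, rose from 37.8 ± 0.65 to 70.0 ± 11.4 CPM (0.89, edgeR adjusted p = 0.000246), and with the covariate it was at 0.48, under 1.5-fold. SYBU, which links syntaxin vesicles to KIF5B, went from 3.25 ± 0.31 to 2.07 ± 0.47 CPM (-0.65, edgeR adjusted p = 0.0246), a call lost with DESeq2 and without Ad CMV GFP replicate 3 or 4 or Ad CMV 3xFlag-Esrrg replicate 2 or 3 (-0.65 to -0.47). RHOT1, the paralog of RHOT2, stood at -0.29 and passed the adjusted p only.

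Cytoplasmic dynein and its activator dynactin drive transport in the opposite direction. Of 25 tested genes 10 were called higher and 2 lower (median log2 fold change 0.28), beside 25.9% and 12.4% of protein-coding genes. On adjusted p alone 13 were higher and 3 lower, beside 37.6% and 22.4%. With reads outside genes as a covariate 1 was called higher and 1 lower, and the share of protein-coding genes called in that fit is not given here. ACTR1B and ACTR1A form the actin-like filament of dynactin. ACTR1B went from 26.4 ± 0.57 to 53.4 ± 13.2 CPM (SD, n = 3, log2 fold change 1.02, edgeR adjusted p = 0.000578), and ACTR1A from 115 ± 10.6 to 231 ± 50.9 CPM (1.01, edgeR adjusted p = 0.000488). With the covariate they were at 0.33 and 0.41, under 1.5-fold. DYNLT3, a light chain, went from 20.5 ± 1.15 to 11.8 ± 0.23 CPM (-0.80, edgeR adjusted p = 0.000163), and HOOK3, a cargo adaptor, from 164 ± 10.1 to 101 ± 4.89 CPM (-0.69, edgeR adjusted p = 0.000246). Both were under 1.5-fold after the GC and length correction, at -0.55 and -0.32.

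Of 22 partners of mitotic kinesins at the spindle and midzone, 2 were called higher and 7 lower (median log2 fold change -0.22). Among protein-coding genes 25.9% were called higher and 12.4% lower, the opposite order. Only with both directions together are these 9 of 22 near the 38.3% of protein-coding genes called. ASPM, a spindle pole protein, fell from 142 ± 14.1 to 59.7 ± 9.17 CPM (SD, n = 3, log2 fold change -1.25, edgeR adjusted p = 5.73e-05). CENPE, a kinetochore kinesin whose symbol is outside the KIF pattern, fell from 40.8 ± 9.85 to 18.6 ± 4.58 CPM (-1.13, edgeR adjusted p = 0.00095). The mitotic kinases AURKB and AURKA were just past 1.5-fold, AURKB from 14.6 ± 2.22 to 22.2 ± 2.60 CPM (0.61, edgeR adjusted p = 0.00414) and AURKA from 29.2 ± 2.51 to 44.2 ± 7.14 CPM (0.60, edgeR adjusted p = 0.00341). With the covariate neither passed (0.29, adjusted p = 0.18, and 0.16, adjusted p = 0.394), and both calls were also lost with library size only, with protein-coding genes only, and without Ad CMV GFP replicate 1 (0.49 and 0.53) or Ad CMV 3xFlag-Esrrg replicate 4 (0.55 and 0.54). AURKA also lost its call without Ad CMV 3xFlag-Esrrg replicate 3 (0.53). Of 12 S phase markers 3 were called higher and 0 lower, beside 25.9% and 12.4% of protein-coding genes. On adjusted p alone 7 of these markers were higher and 0 lower, beside 37.6% and 22.4%. Their median log2 fold change was 0.42, against 0.12 for protein-coding genes. The markers' sum was 550 to 675 CPM with Ad CMV GFP and 728 to 948 CPM with Ad CMV 3xFlag-Esrrg.

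Of 23 intraflagellar transport genes, which ride on KIF3 motors in cilia, 1 was called higher and 5 lower (median log2 fold change -0.19), beside 25.9% and 12.4% of protein-coding genes. WDR19 and TTC21B belong to the retrograde complex. WDR19 fell from 46.6 ± 1.45 to 23.9 ± 2.99 CPM (SD, n = 3, log2 fold change -0.97, edgeR adjusted p = 8.93e-05). TTC21B went from 50.4 ± 1.24 to 29.5 ± 4.65 CPM (-0.77, edgeR adjusted p = 0.000467), and was under 1.5-fold with the covariate (-0.43) and after correction for GC content and length (-0.28). IFT22 went from 24.7 ± 3.10 to 39.4 ± 9.60 CPM (0.68, edgeR adjusted p = 0.00806). It turned to -0.017 with the covariate (adjusted p = 0.948), and its call was lost without Ad CMV GFP replicate 1 (0.58) or Ad CMV 3xFlag-Esrrg replicate 4 (0.57).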

How the data were processed

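RNA-seq of 6 SH-SY5Y libraries was used. The authors deposited raw counts per gene from HTSeq-count, and the labels' processing notes name Trim Galore 0.6.7, STAR 2.7.9a, HTSeq 0.11.3 and GRCh38. The annotation release and the strand setting are not given in the sources used here, although the library kit kept strand. Groups and replicate numbers came from the sample titles. Symbols, exons and GC content came from GENCODE 44. Counts of all genes were filtered (filterByExpr), TMM-scaled and compared by the quasi-likelihood test of edgeR 4.0.16 in R 4.3.3, with Benjamini-Hochberg adjustment over 24500 genes. Standard errors were derived from the fold change and its F statistic. The fit was tested on simulated data. Summary entries of the table (reads outside genes, 29.5% to 52.2%) stayed out of library sizes. Alternatives were DESeq2 1.42.0, other scalings, filters and cutoffs, left-out libraries, a replicate block, mgcv 1.9.3 curves for GC content and length, and a covariate for reads outside genes. 31-base words were looked up in the genome with 261 alternate contigs. The kinesins, their classes and the partner lists were chosen with earlier results of these data known. Values of every library are given for called kinesins and the KIF1, KIF3 and KIF5 families, and group means for the 2 called genes of each partner list with the largest change in each direction, or 1 where only 1 was called. KIFAP3, RHOT1 and the other genes outside this rule were named after their values were seen. Numbers shared by replicates 3 and 4 were not taken as pairs. Python 3.11.15, pandas 2.3.3 and matplotlib 3.10.9 made tables and plots.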

Additional observations from a re-analysis of the deposited data

Results flagged for a closer look

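Reads aligned to several places, a part of each library that enters no comparison of kinesins, stood out because they were above the control level in every Ad CMV 3xFlag-Esrrg library. Their share was 9.33%, 12.7% and 13.0% for Ad CMV 3xFlag-Esrrg replicates 2, 3 and 4, compared with 7.26%, 7.41% and 7.16% in Ad CMV GFP replicates 1, 3 and 4. Whether this has a part in any kinesin value was not tested.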

How the results depend on the processing

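KIF11, KIF1C, KIF26A and KIFC3 were called in the same direction under each of the 17 alternatives run. The number of kinesins called, 12, became 22 with no fold cutoff and 6 with reads outside genes as a covariate, and was 11 to 14 when 1 library was left out. The cause of these shifts was not tested, apart from the looser cutoff itself. With no fold cutoff 37.6% of tested protein-coding genes were higher and 22.4% lower. For the other alternatives such shares are not given here, so shifts particular to these lists cannot be told from general ones. With no fold cutoff the counts were 4 transport kinesins higher and 5 lower, 1 mitotic higher, 7 others lower, 7 cargo partners lower, 4 spindle partners higher, and 3 intraflagellar transport genes higher and 9 lower. With the covariate they were 1 transport lower, 1 mitotic lower, 0 others higher and 2 lower, 1 cargo partner higher and 2 lower, 1 dynein or dynactin gene higher and 1 lower, 0 spindle partners higher and 4 lower, and 0 intraflagellar genes higher and 2 lower. With library size as the only scaling they were 5 transport lower, 0 others higher and 7 lower, 1 cargo partner higher and 4 lower, 5 dynein or dynactin genes higher, 0 spindle partners higher, and 0 intraflagellar genes higher and 10 lower. DESeq2 and RLE size factors each gave 2 others lower, 0 cargo partners lower, 4 spindle partners higher and 3 intraflagellar genes lower. Protein-coding genes alone gave 4 transport lower, 0 spindle partners higher and 0 intraflagellar genes higher. No low-count filter gave 2 others higher, KIF12 being added. The GC and length correction gave 3 cargo partners higher, 0 dynein or dynactin genes lower, 1 spindle partner higher and 3 lower, and 2 intraflagellar genes higher and 2 lower. Replicate 2 of Ad CMV 3xFlag-Esrrg alone against the controls, chosen after seeing the data and with no spread within its arm, gave 2 cargo partners higher, 2 dynein or dynactin genes higher, 0 spindle partners higher and 4 lower, and 0 intraflagellar genes higher and 2 lower.

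Leaving out 1 library at a time gave 2 to 5 transport kinesins higher, 0 to 1 mitotic higher, 2 to 3 others lower, 0 to 1 cargo partner lower, 0 to 4 spindle partners higher, and 0 to 3 intraflagellar genes higher and 3 to 5 lower. Without Ad CMV 3xFlag-Esrrg replicate 2, KIF3B, KIF3C, KIF21B and KIF22 were called higher, and the medians of transport and mitotic kinesins were 0.10 and 0.02, where all libraries gave -0.06 and -0.15. KIF21B was also called without Ad CMV GFP replicate 4, KIF22 without Ad CMV GFP replicate 3 and KIF20B without Ad CMV GFP replicate 1.

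Replicate numbers 3 and 4 occur in both groups, and same-numbered libraries did not deviate together (r = 0.075 and -0.0001). With the replicate number as a block, which rests the contrast on those numbers, 1 spindle partner and 2 intraflagellar genes were higher, KIF6 was lost, KIF20B and KIF21A were gained, and KIF17 was at 0.11. The block with the GC and length correction gave 3 cargo partners higher, 0 dynein or dynactin genes lower, 1 spindle partner higher, and 2 intraflagellar genes higher and 2 lower, with KIF18B at -0.27, KIF23 at 0.14, KIF26B at -0.076, KIF2A at 0.090 and KIF2C at -0.054.

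Genes near 0 changed sign. DESeq2 and RLE size factors gave 0.035 and 0.036 for KIF17, 0.0399 and 0.0400 for KIF20A, 0.0292 and 0.0290 for KIF23, and 0.0225 and 0.0224 for KIF5A. Library size alone gave KIF18B -0.13, KIF1B -0.19, KIF26B -0.24 and KIF2C -0.15, and protein-coding genes alone gave KIF1B -0.011 and KIF26B -0.055. The GC and length correction gave KIF18B -0.20, KIF23 0.10, KIF26B -0.083, KIF2A 0.026 and KIF2C -0.0049. The covariate gave IFT22 -0.017, KIF22 -0.033 and KIF2C -0.20, and Ad CMV 3xFlag-Esrrg replicate 2 alone gave KIF2C -0.061. With 1 library left out, KIF17 ranged from -0.24 to 0.23, KIF20A from -0.14 to 0.18, KIF23 from -0.095 to 0.090 and KIF5A from -0.11 to 0.10. KIF6, at 3 to 20 counts per library, is limited by depth.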
